A study of Rattus norvegicus with 12 samples.

Results

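The genes described here are 7 that mark the alveolar type I cell, namely Ager, Aqp5, Hopx, Clic5, Akap5, Cav1 and Pdpn. They were chosen by symbol in the array's annotation, 7 of 14217 genes with a probe set of their own, and they are read by 9 of 31042 probe sets. Cav1 has 3 probe sets and each of the others has 1, and where there were several, the probe set of highest mean log2 signal over the 12 arrays stands for the gene. The bronchial tissue was cut by laser from frozen lung sections of male Wistar-Han rats (Wistar in the labels), aged 6 to 7 weeks when obtained, that had breathed filtered air or 200 ppm 2,3-pentanedione (PD), a butter-flavouring diketone, for 2 weeks. Controls were bronchi of air-exposed rats (n = 6, replicates 1 to 6). Fibrotic specimens from PD-exposed rats were polyps or plaques in the lumen with the wall under them (n = 3, replicates 3, 7 and 9). Non-fibrotic specimens from PD-exposed rats were bronchial branches free of fibrosis, with their lining and wall (n = 3, replicates 4, 8 and 10). All specimens came from the right diaphragmatic lobe, and RNA of each was amplified and hybridized to an Affymetrix rat 3′ expression array. Some PD-exposed rats gave tissue of both kinds, but which specimens share a rat is not in the labels, and no p-value between the exposed groups takes this sharing into account. The material of a specimen was gathered over many serial sections of a lung.

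The alveolar type I cell is the thin, wide cell that lines most of the gas-exchange surface of the lung, and the alveolar type II cell beside it makes surfactant and can give rise to it. Ager is a receptor of the immunoglobulin superfamily at the base of type I cells, Aqp5 a water channel at their apical face and Pdpn (T1α) a mucin-like membrane glycoprotein. Cav1 is the coat protein of caveolae, the small pits of the plasma membrane. Clic5 joins the cortical actin skeleton with ezrin, Akap5 is a scaffold that anchors protein kinase A and calcineurin, and Hopx is a small homeodomain protein of the nucleus that acts through partners. None of them belongs to type I cells alone. Aqp5 is also found in airway and gland epithelium, Cav1 in endothelium, fibroblasts and smooth muscle, and Pdpn in lymphatic endothelium, basal cells and activated fibroblasts.

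The groups stood apart in different ways from gene to gene. Pdpn rose 6.83-fold and Aqp5 fell 16.9-fold in fibrotic bronchi against controls, both with groups that did not overlap. Clic5 was 5.01-fold lower in fibrotic than in non-fibrotic bronchi, the highest of the 3 groups. Ager, Clic5, Akap5, Hopx, Cav1 and Pdpn had higher means in non-fibrotic bronchi than in controls and Aqp5 a lower one, and none of these differences passed the test. The values are log2 MAS5 signals, each measured on its own probe set, so that levels are compared between arrays and never between genes. A difference was called where its p from limma, adjusted over all 31042 probe sets by the Benjamini-Hochberg method, was under 0.01. Against controls, 2.99% of all probe sets were called higher and 6.40% lower in fibrotic bronchi, and 0.164% and 0.358% in non-fibrotic bronchi. Between fibrotic and non-fibrotic bronchi these shares were 1.07% and 2.75%. They are the background of every count of called genes below. In bulk tissue, fewer cells of a type and less RNA per cell cannot be told apart.

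**Figure D1:**
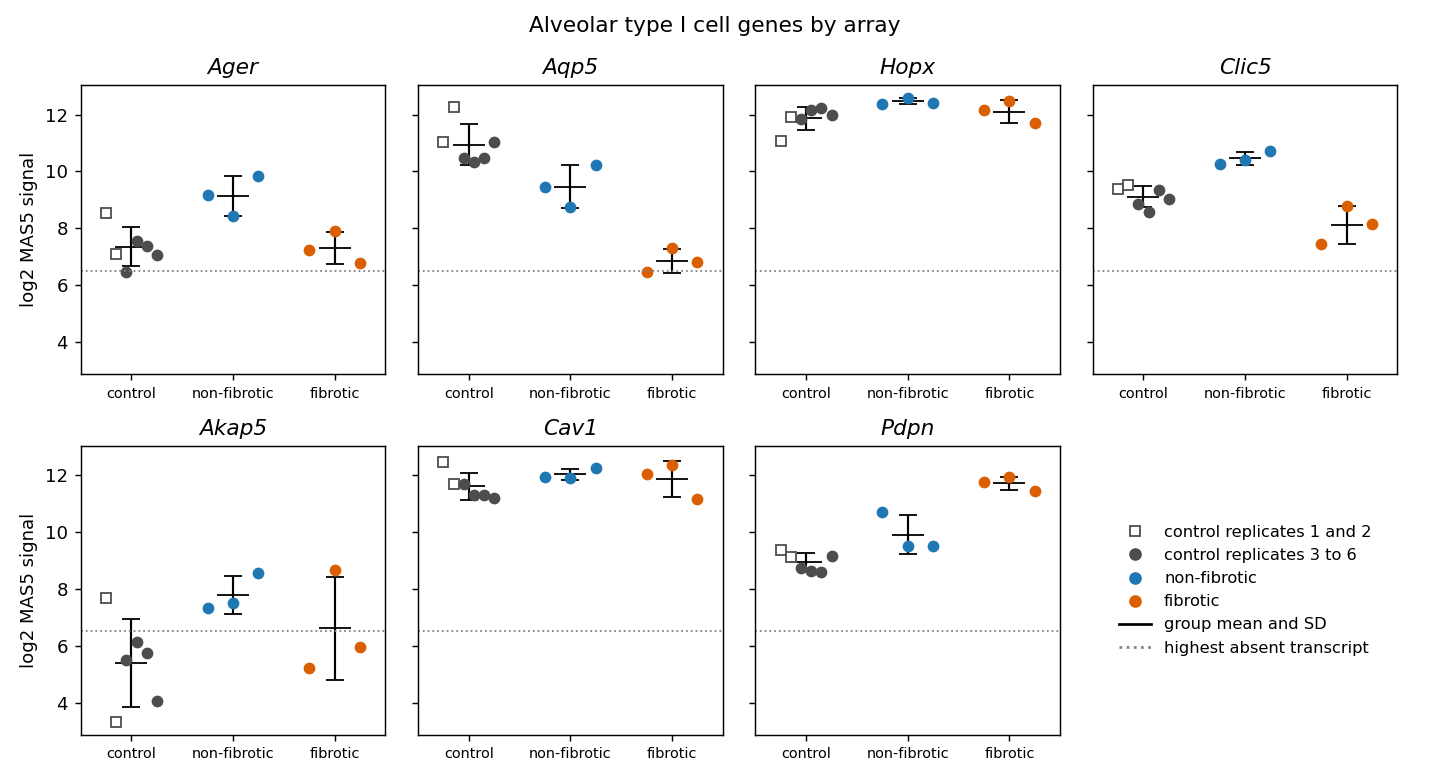
Log2 MAS5 signal (vertical) of the 7 genes on each of 12 arrays, by group, with the group mean and SD (n = 6 control, n = 3 non-fibrotic, n = 3 fibrotic). Open squares are control replicates 1 and 2, and the dotted line is the highest signal of transcripts absent from the samples, 6.52. Fibrotic arrays lie lowest for Aqp5 (6.45 to 7.31) and highest for Pdpn (11.46 to 11.93), and non-fibrotic arrays lie highest for Clic5 (10.26 to 10.73).

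The genes that passed a test, Aqp5, Clic5 and Pdpn, are shown with the DNA before their annotated starts, from RefSeq on build GRCr8. Aqp5 lies on chr7:132601528-132605060 (+), Clic5 on chr9:24208455-24310964 (-) and Pdpn on chr5:160884995-160919112 (-). Each sequence holds the 250 bases upstream of a transcript start, read 5′ to 3′ along the gene's strand, and capitals mark GC boxes (GGGCGG on either strand, written CCGCCC where it is on the other), the short element bound by Sp1. The windows are chr7:132601278-132601527 for Aqp5, chr9:24310965-24311214 for Clic5 and chr5:160918960-160919209 for Pdpn, where part of the window lies within the annotated gene.
Aqp5: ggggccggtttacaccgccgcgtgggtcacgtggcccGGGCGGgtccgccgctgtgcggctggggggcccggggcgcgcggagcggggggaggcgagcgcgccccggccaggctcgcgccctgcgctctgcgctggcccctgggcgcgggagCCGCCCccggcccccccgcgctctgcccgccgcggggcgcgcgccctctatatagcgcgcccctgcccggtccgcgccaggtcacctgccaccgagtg
Clic5: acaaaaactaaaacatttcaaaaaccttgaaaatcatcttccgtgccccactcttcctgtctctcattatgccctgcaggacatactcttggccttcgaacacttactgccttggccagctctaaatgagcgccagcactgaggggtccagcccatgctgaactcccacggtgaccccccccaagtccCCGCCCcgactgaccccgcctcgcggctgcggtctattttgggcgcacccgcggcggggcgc
Pdpn: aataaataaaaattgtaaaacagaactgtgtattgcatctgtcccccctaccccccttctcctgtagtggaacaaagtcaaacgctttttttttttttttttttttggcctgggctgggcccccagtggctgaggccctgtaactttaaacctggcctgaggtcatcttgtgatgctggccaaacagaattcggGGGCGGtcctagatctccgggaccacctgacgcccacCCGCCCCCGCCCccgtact
The Aqp5 window had a GC content of 83.2%, that of Clic5 58.4% and that of Pdpn 51.6%, and the median over 33469 windows was 51.2%. Aqp5 holds 2 GC boxes, Clic5 holds 1 and Pdpn holds 3, of which the last pair lies end to end. Of all windows of this length, 30.5% hold a GC box. TATAAA, the letters of the TATA box (12.9% of all windows), TGANTCA of AP-1 (6.34%), GGAATG of Tead factors (12.1%) and TGTTTAC of forkhead factors (3.21%) occur in none of these 3 windows on either strand. For the other genes only such windows were searched as well. The window of Akap5 (gene at chr6:100787169-100796712) holds 3 GC boxes. Cav1 (gene at chr4:46606538-46639616) has 1 GC box and 1 TATAAA before the first of its annotated starts. The window before its other start lies within the gene and holds none of the motifs. The windows of Ager (chr20:4155686-4155935, gene at chr20:4152758-4155956) and Hopx (chr14:31429163-31429412, gene at chr14:31410235-31437189) hold none of the 5 motifs. Both of these windows lie within the annotated genes.

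The arrays were not alike in their handling, which is given before the results that rest on them. Control replicates 1 and 2, whose labels have the form of those of the exposed arrays, had a mean log2 signal of the poly-A transcripts that are added during labelling between 2.31 and 2.33. These transcripts lay between 9.99 and 10.63 in control replicates 3 to 6 and between 8.03 and 11.06 in the exposed arrays. The log2 ratio of 3′ to 5′ GAPDH signal, which grows as RNA breaks up, was 1.16 and 2.04 in control replicates 1 and 2, between 0.70 and 0.90 in control replicates 3 to 6 and between 1.59 and 2.35 in the exposed arrays. No pair of arrays had a correlation above 0.9565, so none was a copy of another. Differences from control replicates 1 and 2 alone and from control replicates 3 to 6 alone are given beside each gene's results.

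Aqp5 (probe set 1368469_at) ranged from 10.33 to 12.27 in controls, with a median of 10.76. The fibrotic arrays (replicates 3, 7 and 9) had 6.45, 7.31 and 6.82, and the non-fibrotic arrays (replicates 4, 8 and 10) had 9.45, 8.73 and 10.22. Every fibrotic array lay below every non-fibrotic array, and every non-fibrotic array below every control, so the groups formed 3 steps without overlap. The lowest fibrotic array was under 6.52, the level reached by bacterial transcripts absent from the samples. Fibrotic bronchi (6.86 ± 0.43, SD, n = 3) fell by 4.08 on the log2 scale from controls (10.94 ± 0.72, SD, n = 6; standard error 0.41, 95% interval -4.95 to -3.21, adjusted p = 5.2e-06), or by 4.06 with that array set to the level of absent transcripts. The call held against control replicates 1 and 2 alone (-4.79, adjusted p = 5.24e-04) and against control replicates 3 to 6 alone (-3.72, adjusted p = 1.53e-05). In non-fibrotic bronchi (9.47 ± 0.74, SD, n = 3) the difference from controls was -1.47 (interval -2.34 to -0.60, adjusted p = 0.0476) and was not called, with -2.18 and -1.11 against these sets of controls. The direct difference of fibrotic from non-fibrotic bronchi was -2.61 (standard error 0.48, interval -3.62 to -1.60, adjusted p = 0.00273), and its adjusted p was 0.0182 without non-fibrotic replicate 10 and 0.0162 without fibrotic replicate 3. Airway epithelium also makes Aqp5, and the ciliated and club cell lists of its markers fell with the gene in fibrotic bronchi. The basal and squamous list did not, with no marker called there against controls and a median log2 difference of 1.3. All 4 measured ciliated cell markers fell in fibrotic bronchi, with summed signals of 659.9 to 1871 against 18480 to 31410 in controls and 17010 to 27820 in non-fibrotic bronchi. All 7 measured club cell markers fell too, from 59870 to 119800 in controls to 5910 to 17420, with 50410 to 83720 in non-fibrotic bronchi. Cyp2f4, Cyp4b1 and Sec14l3 of that list stand among the genes that the study picked from these samples for fibrotic bronchi. Cyp2a3 stands among those it picked for non-fibrotic bronchi. The direction of each there is thus not independent evidence. The defining markers were not at 0 in fibrotic bronchi, where Foxj1 had a log2 signal of 6.81 to 8.42 (12.07 to 12.94 in controls) and Scgb1a1 12.34 to 13.70 (13.98 to 15.22 in controls). The part of these cells in the difference of Aqp5 was not tested.

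Of 10 other aquaporins, 1 fell in fibrotic bronchi and none rose, but on every array 6 to 8 of the 10 lay under the level of absent transcripts, so most of this family had no measurable signal. Aqp4, a water channel of the basolateral membrane of airway epithelium, ranged from 11.43 to 12.37 in controls, was 8.08, 7.45 and 7.87 in fibrotic bronchi and 11.06, 11.58 and 11.15 in non-fibrotic bronchi. Its log2 difference was -4.30 from controls (adjusted p = 1.47e-08) and -3.47 from non-fibrotic bronchi (adjusted p = 3.34e-06). Against controls, non-fibrotic bronchi had a difference of -0.84 in Aqp4 (adjusted p = 0.0511). No aquaporin was called there in limma, and 3 of 10 had an unadjusted p under 0.05 (26.4% of all probe sets). Aqp1, the channel of endothelium, differed by 0.82 between fibrotic and non-fibrotic bronchi (adjusted p = 0.186).

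Pdpn (1386913_at) ranged from 8.61 to 9.37 in controls, with a median of 8.95. The fibrotic arrays had 11.76, 11.93 and 11.46 and the non-fibrotic arrays 10.70, 9.51 and 9.52. The groups again formed 3 steps without overlap, in the order opposite to that of Aqp5, with non-fibrotic replicate 4 apart from the other 2 of its group. Fibrotic bronchi (11.72 ± 0.24, SD, n = 3) rose by 2.77 on the log2 scale over controls (8.95 ± 0.32, SD, n = 6; standard error 0.29, interval 2.15 to 3.40, adjusted p = 8.26e-06). The difference was called with every array left out in turn, against control replicates 1 and 2 alone (2.46) and against control replicates 3 to 6 alone (2.93). Non-fibrotic bronchi (9.91 ± 0.69, SD, n = 3) differed from controls by 0.97 (interval 0.34 to 1.59, adjusted p = 0.0603), or by 0.57 without non-fibrotic replicate 4, 0.66 against control replicates 1 and 2 and 1.12 against control replicates 3 to 6. Fibrotic bronchi were 3.50-fold higher than non-fibrotic bronchi (log2 difference 1.81, standard error 0.34, interval 1.09 to 2.53, adjusted p = 0.00327). That call was lost without non-fibrotic replicate 8 (adjusted p = 0.0182), without non-fibrotic replicate 10 (0.019), without fibrotic replicate 3 (0.0162) and without fibrotic replicate 7 (0.0187).

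Other cell types that make Pdpn moved with it in part. Of 10 fibroblast markers, 4 rose in fibrotic bronchi and none fell (2.99% and 6.40% of all probe sets). Their summed signals were 59860 to 83670 there, against 29560 to 50820 in controls and 35560 to 51290 in non-fibrotic bronchi. Lum, a matrix proteoglycan, rose with a log2 difference of 4.45 (adjusted p = 3.63e-04) and Pdgfra, a receptor of platelet-derived growth factors, with 1.35 (adjusted p = 4.98e-04). Of 6 lymphatic endothelial markers, Reln rose with 2.44 (adjusted p = 0.00937), or 1.48 with the 5 dim controls raised to the absent-transcript level. Their sums ran from 342.9 to 3225 in controls, 1299 to 3025 in fibrotic and 449.6 to 2263 in non-fibrotic bronchi. Lyve1, which marks lymphatic vessels, had a log2 signal of 6.59 to 8.44 in controls, 7.99 to 10.43 in fibrotic bronchi and 6.75 to 9.76 in non-fibrotic bronchi. Of 7 measured basal and squamous markers none was called in limma in fibrotic bronchi (3 had an unadjusted p under 0.05, as did 31.9% of all probe sets), and their sums were 453 to 9701 in controls, 1246 to 2500 in non-fibrotic bronchi and 4166, 3739 and 27310 in fibrotic replicates 3, 7 and 9. On these fibrotic arrays, in the same order, Pdpn was 11.76, 11.93 and 11.46 and the fibroblast sums were 59860, 70150 and 83670. Macrophages moved as well, with 2 of 7 measured markers higher in fibrotic bronchi and sums of 9309 to 17690 against 1032 to 2375. The part of any of these cell types in the rise of Pdpn was not tested.

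The proteins that podoplanin is known to work with were counted as a list of 10 genes. In fibrotic bronchi 3 of them rose and none fell (2.99% and 6.40% of all probe sets). Moesin (Msn), the protein that links the podoplanin tail to actin, had a log2 difference of 1.59 (adjusted p = 7.04e-05). Cd44, a hyaluronan receptor that podoplanin binds, rose with 2.08 (adjusted p = 5.09e-04). Rhoa, a small GTPase of the actin skeleton, rose with 0.60 (adjusted p = 0.00877). Ezrin (Ezr), the relative of moesin found in epithelia, differed by -0.75 from controls (adjusted p = 0.0187) and was lower in fibrotic than in non-fibrotic bronchi (log2 difference -1.33, adjusted p = 0.00242). In non-fibrotic bronchi no partner was called in limma against controls, and 4 of 10 had an unadjusted p under 0.05 (26.4% of all probe sets), among them Msn with 1.05 (adjusted p = 0.0146).

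Clic5 (1370254_at) ranged from 8.56 to 9.53 in controls, with a median of 9.19. The fibrotic arrays had 7.45, 8.79 and 8.16 and the non-fibrotic arrays 10.26, 10.39 and 10.73. Every non-fibrotic array lay above every control and every fibrotic array, while fibrotic replicate 7 lay within the range of the controls. Fibrotic bronchi (8.13 ± 0.67, SD, n = 3) were lower than non-fibrotic bronchi (10.46 ± 0.24, SD, n = 3) by a log2 difference of -2.33 (standard error 0.37, interval -3.10 to -1.55, adjusted p = 8.87e-04), a call that held with every array left out in turn. Against controls (9.11 ± 0.37, SD, n = 6), the non-fibrotic difference was 1.34 (interval 0.67 to 2.02, adjusted p = 0.0267) and the fibrotic one -0.98 (interval -1.65 to -0.31, adjusted p = 0.0423), and neither was called. Without fibrotic replicate 3 the fibrotic difference was -0.64 (adjusted p = 0.218). Against control replicates 1 and 2 the non-fibrotic difference was 1.00 and the fibrotic one -1.32, and against control replicates 3 to 6 they were 1.51 and -0.81. Clic5 and Akap5 stand among the genes that the study picked from these samples for non-fibrotic bronchi, so their direction there is not independent evidence.

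Of 9 measured genes of the chloride intracellular channel family and of the ezrin, radixin and moesin skeleton, 3 rose and 2 fell in fibrotic bronchi (2.99% and 6.40% of all probe sets). Clic4 rose with 1.45 (adjusted p = 0.00735), while Clic3 fell with a log2 difference of -5.18 (adjusted p = 7.75e-04), or -3.77 with dim arrays raised to the absent-transcript level. Clic3 was 7.46, 8.13 and 2.31 in fibrotic replicates 3, 7 and 9, between 9.96 and 11.96 in controls and between 10.64 and 11.85 in non-fibrotic bronchi, so replicate 9, the array under that level, stood apart. Podxl, a sialomucin of cell surfaces, rose with 1.59 (adjusted p = 0.00188) and Slc9a3r1, a scaffold that binds ezrin, fell with -1.42 (adjusted p = 0.00142). Against non-fibrotic bronchi Clic3 and Ezr were lower and no gene was higher. The 2 Clic genes that passed the test thus moved in opposite directions in fibrotic bronchi.

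Ager (1387159_at) ranged from 6.47 to 8.54 in controls, with a median of 7.25. The fibrotic arrays had 7.23, 7.92 and 6.77 and the non-fibrotic arrays 9.17, 8.42 and 9.84. The fibrotic arrays lay inside the range of the controls, and the non-fibrotic arrays lay above all arrays but control replicate 1, which exceeded the lowest of them. Non-fibrotic bronchi (9.15 ± 0.71, SD, n = 3) had a mean 1.79 higher than controls (7.36 ± 0.69, SD, n = 6; standard error 0.46, interval 0.80 to 2.77, adjusted p = 0.0371), which was not called. Fibrotic bronchi (7.31 ± 0.58, SD, n = 3) differed from controls by -0.05 (interval -1.03 to 0.93, adjusted p = 0.959), and the sign of this value turned with the scaling and with the controls used (-0.51 against control replicates 1 and 2 and 0.18 against control replicates 3 to 6). The non-fibrotic difference was 1.32 and 2.02 against these sets. Between fibrotic and non-fibrotic bronchi the log2 difference was -1.84 (interval -2.97 to -0.70, adjusted p = 0.0409), again not called, with no overlap of the groups. Of 10 measured ligands and effectors of the receptor, none was called in limma in any comparison, and 1, 4 and 4 had an unadjusted p under 0.05 in the fibrotic, the non-fibrotic and the direct comparison of the exposed groups, where 31.9%, 26.4% and 23.2% of all probe sets did. The S100 ligand S100a9, a protein of neutrophils, had log2 differences of -2.67 in non-fibrotic bronchi against control (adjusted p = 0.0448) and 3.35 in fibrotic against non-fibrotic bronchi (adjusted p = 0.0201).

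Akap5 (1387493_at) lay under or near the level of absent transcripts on most arrays. It ranged from 3.34 to 7.69 in controls, with a median of 5.63, and 5 of the 6 controls lay under the level of absent transcripts. The fibrotic arrays had 5.23, 8.66 and 5.97, of which 2 lay under that level, and the non-fibrotic arrays had 7.32, 7.51 and 8.57. All non-fibrotic arrays were above the level of absent transcripts, with control replicate 1 and fibrotic replicate 7 as the only other arrays above it. Against controls, the non-fibrotic difference was 2.39 (standard error 0.89, interval 0.51 to 4.27, adjusted p = 0.106), or 1.09 with arrays under that level set to it. The fibrotic difference was 1.21 (interval -0.67 to 3.09, adjusted p = 0.376), or 0.52 with dim arrays raised to that level, and 0.19 without fibrotic replicate 7. The difference between fibrotic and non-fibrotic bronchi was -1.18 (interval -3.35 to 0.99, adjusted p = 0.539), or -0.57 with dim arrays raised, and it was -2.20 without fibrotic replicate 7 and -0.49 without fibrotic replicate 3. Against control replicates 1 and 2 the non-fibrotic difference was 2.28 and the fibrotic one 1.10, and against control replicates 3 to 6 they were 2.44 and 1.26. Of 19 measured anchoring proteins and partners of the kinase, none was called in limma in any comparison, with 5, 2 and 1 at an unadjusted p under 0.05, a smaller share of the list than of all probe sets in each. Prkar2b, a regulatory subunit of protein kinase A, had a difference of -1.13 in fibrotic bronchi (adjusted p = 0.0117).

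Cav1 (1372111_at) was bright on every array. It ranged from 11.21 to 12.46 in controls, with a median of 11.49, was 12.05, 12.38 and 11.16 in fibrotic bronchi and 11.94, 11.91 and 12.26 in non-fibrotic bronchi. The groups overlapped in each comparison. The log2 difference from controls was 0.25 in fibrotic bronchi (interval -0.36 to 0.86, adjusted p = 0.586) and 0.43 in non-fibrotic bronchi (interval -0.18 to 1.04, adjusted p = 0.353), and between the exposed groups it was -0.18 (interval -0.88 to 0.53, adjusted p = 0.805). Probe set 1393281_at gave 0.14, 0.28 and -0.14 for the same comparisons, and 1370131_at gave -0.42, -0.79 and 0.37, so the probe sets of the gene disagreed in sign. Against control replicates 1 and 2 the main probe set gave -0.22 in fibrotic and -0.05 in non-fibrotic bronchi, and against control replicates 3 to 6 it gave 0.49 and 0.67. Endothelium and smooth muscle also make Cav1. Among 7 smooth muscle markers none was called in limma in any comparison (1, 0 and 1 had an unadjusted p under 0.05, again under the share of all probe sets). Of 14 measured endothelial markers Erg and Egfl7 rose in fibrotic bronchi, and 1 was called higher in non-fibrotic bronchi against controls. Erg was 6.41 to 7.75 in controls, 8.54 to 9.16 in non-fibrotic and 8.87 to 9.12 in fibrotic bronchi.

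The other genes of caveolae did not share one direction. Of 9 measured, Ehd2, an ATPase at the caveolar neck, rose in fibrotic bronchi with 1.91 (adjusted p = 9.99e-05). Cav2, which assembles with Cav1, fell with -1.90 (adjusted p = 0.00188), and Pacsin2, a membrane-bending protein, with -1.11 (adjusted p = 0.00354). In non-fibrotic bronchi none was called in limma against controls, although 6 of 9 had an unadjusted p under 0.05 (26.4% of all probe sets), among them Ehd2 with 1.33 (adjusted p = 0.0136) and Cav2 with -1.25 (adjusted p = 0.0551). Pacsin2 was also lower in fibrotic than in non-fibrotic bronchi (log2 difference -1.27, adjusted p = 0.00741).

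Hopx (1367816_at) was bright on every array, and none of its differences was called. It ranged from 11.08 to 12.22 in controls, with a median of 11.95, was 12.14, 12.47 and 11.69 in fibrotic bronchi and 12.38, 12.58 and 12.42 in non-fibrotic bronchi. All 3 non-fibrotic arrays lay above every control, and the fibrotic arrays overlapped both groups. The difference from controls was 0.59 in non-fibrotic bronchi (interval 0.09 to 1.10, adjusted p = 0.13) and 0.24 in fibrotic bronchi (interval -0.27 to 0.74, adjusted p = 0.535). Against control replicates 1 and 2 these differences were 0.97 and 0.61, and against control replicates 3 to 6 they were 0.40 and 0.05. Between the exposed groups it was -0.36 (interval -0.94 to 0.23, adjusted p = 0.479). Of 12 measured partners of Hopx and regulators of lung epithelium, 3 fell in fibrotic bronchi and none rose (6.40% and 2.99% of all probe sets). They were Foxa2 (at least 8.02-fold lower, adjusted p = 1.68e-05), Foxa1 (log2 difference -4.38, adjusted p = 1.44e-04, or -2.97 with dim arrays raised to the absent-transcript level) and Nkx2-1 (-2.95, adjusted p = 8.41e-04), transcription factors of airway and alveolar epithelium. The same 3 were lower in fibrotic than in non-fibrotic bronchi. Foxa2 was 2.86, 6.28 and 4.66 in fibrotic replicates 3, 7 and 9, each under the level of absent transcripts from which its bound was measured, and between 8.72 and 10.08 in controls. Srf, which Hopx binds, differed by -0.89 between the exposed groups (adjusted p = 0.144).

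**Figure D2:**
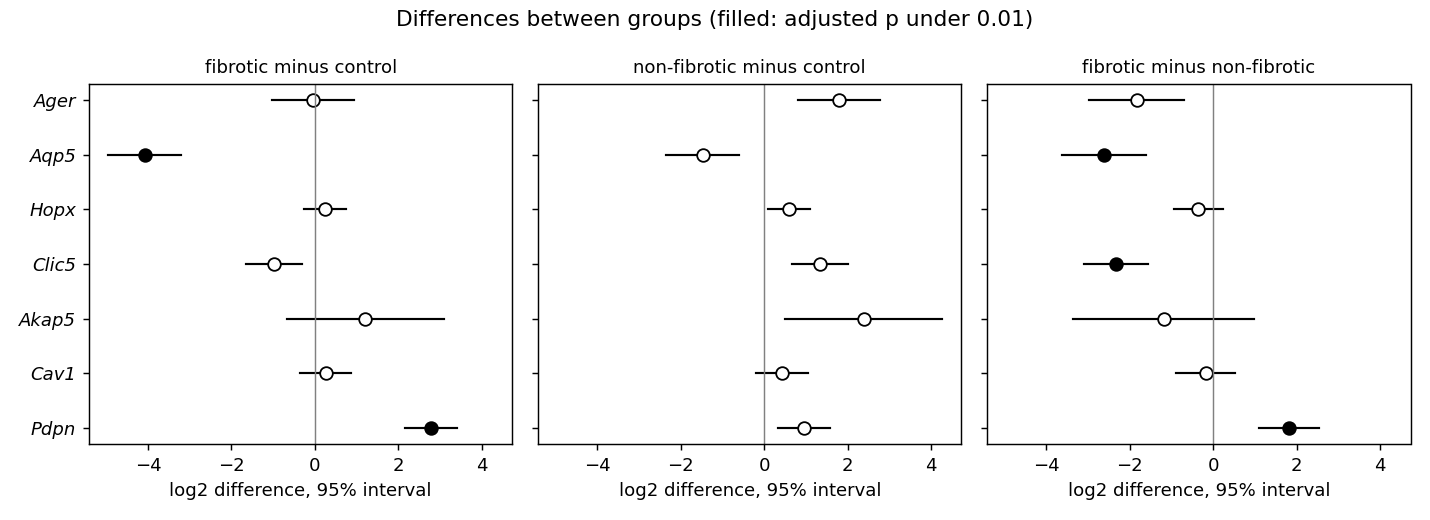
Log2 difference (horizontal) of each of the 7 genes with its 95% interval from limma, for each exposed group against controls (left, fibrotic, and middle, non-fibrotic) and for fibrotic minus non-fibrotic bronchi (right). Filled points have an adjusted p under 0.01, and they are Aqp5 (-4.08) and Pdpn (2.77) on the left, none in the middle and Aqp5 (-2.61), Clic5 (-2.33) and Pdpn (1.81) on the right.

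In fibrotic bronchi against controls, 1 of the 7 genes was called higher, where 2.99% of all probe sets were, and 1 was called lower, where 6.40% were. The same 2 genes, Pdpn and Aqp5, were those without overlap, against 12.3% of all probe sets higher on every array and 11.3% lower. The median log2 difference of the 7 was 0.24 and that of all probe sets 0.10. In non-fibrotic bronchi against controls, none of the 7 was called in limma, where 0.164% of all probe sets were called higher and 0.358% lower. At an unadjusted p under 0.05 there were 6 of 7 genes, all but Cav1, against 26.4% of all probe sets, and at an adjusted p under 0.05 there were 3, Ager, Clic5 and Aqp5, against 5.83% of all probe sets. Hopx, Clic5 and Pdpn were higher on every non-fibrotic array than on any control (9.23% of all probe sets) and Aqp5 was lower (5.42%). The median difference was 0.97 over the 7 genes and 0.09 over all probe sets. The study had picked Clic5 and Akap5 for non-fibrotic bronchi from these samples, so their part in these counts and this median is not independent evidence. Akap5 also had 5 of 6 controls under the level of absent transcripts. Between fibrotic and non-fibrotic bronchi, Pdpn was called higher (1.07% of all probe sets) and Aqp5 and Clic5 lower (2.75%). There Pdpn was higher without overlap (10.9%), Ager, Aqp5 and Clic5 were lower without overlap (12.2%), and the median was -1.18 against -0.09 over all probe sets. The comparisons with air share their controls, and each shares its exposed arrays with the direct comparison, so they are not independent of one another.

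The set of controls moved several of these values. Ager lay between 7.11 and 8.54 in control replicates 1 and 2 and between 6.47 and 7.57 in control replicates 3 to 6, Aqp5 between 11.03 and 12.27 and between 10.33 and 11.02, and Cav1 between 11.71 and 12.46 and between 11.21 and 11.69. Hopx went the other way, with 11.08 and 11.90 in the former and 11.84 to 12.22 in the latter. Clic5 had 9.38 and 9.53 in the former and 8.56 to 9.36 in the latter. Aqp5, Clic5 and Cav1 did not overlap between these sets of controls, in each case by a narrow gap. The GAPDH ratio moves with these sets, and its part in the values was not tested.

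**Figure D3:**
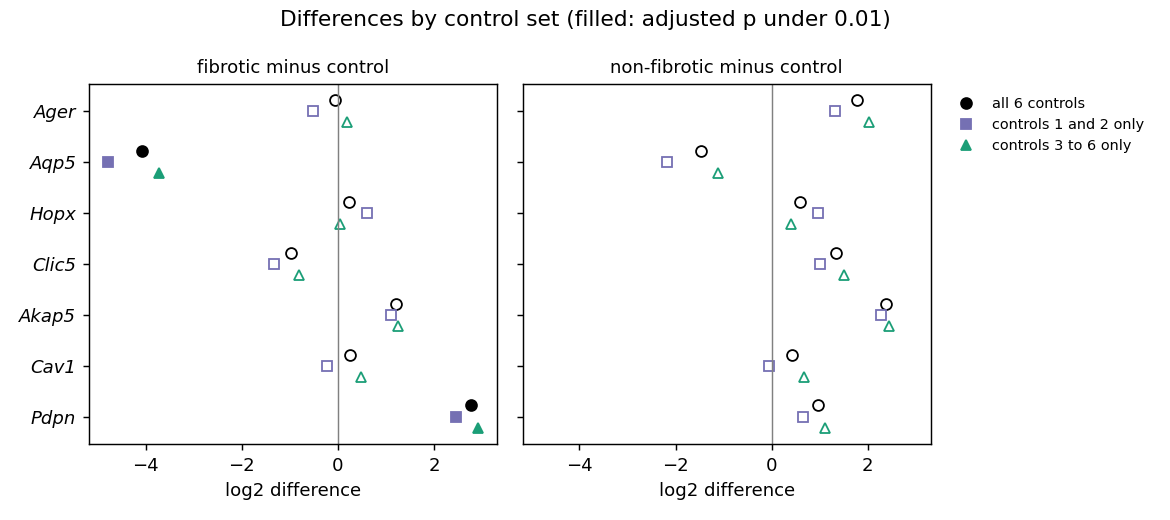
Log2 difference (horizontal) of each of the 7 genes in fibrotic and in non-fibrotic bronchi, against all 6 controls (circles), control replicates 1 and 2 (squares) and control replicates 3 to 6 (triangles), with filled symbols at an adjusted p under 0.01. Aqp5 and Pdpn stay called in fibrotic bronchi with each set (Aqp5 from -4.79 to -3.72, Pdpn from 2.46 to 2.93), and no gene is called in non-fibrotic bronchi with any.

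Among the fibrotic arrays one stood above the others. Fibrotic replicate 7 had the highest signal of its group for all 7 genes, and non-fibrotic replicate 10 did so in its group for 5 of 7, Hopx and Pdpn being highest on other arrays. Alveolar type II markers, which would come with alveolar tissue in a specimen, moved with fibrotic replicate 7. Sftpc, the surfactant protein that defines type II cells, had a log2 signal of 7.51, 14.17 and 11.28 in fibrotic replicates 3, 7 and 9, and the summed signal of the 11 type II markers was 27120, 80860 and 24330. The sums were 47510 to 66580 in controls and 83470 to 103100 in non-fibrotic bronchi, where Sftpc was between 12.99 and 13.53. The brightest genes carry these sums. The median log2 signal of the list overlapped between groups, with 9.91 to 10.73 in controls, 10.38 to 10.91 in non-fibrotic and 9.18 to 11.04 in fibrotic bronchi. No type II marker was called in limma in non-fibrotic bronchi against controls, and 4 of 11 had an unadjusted p under 0.05 (26.4% of all probe sets). In fibrotic bronchi Sftpb (-3.19, adjusted p = 4.72e-04), Sftpd (-3.06, adjusted p = 1.16e-04) and Abca3 (-1.64, adjusted p = 0.00126) fell and Lyz2, also a gene of macrophages, rose (0.79, adjusted p = 0.00983). Of those not called there, Sftpc and Sftpa1 had lower means than in controls, and Napsa, Etv5, Lpcat1, Lamp3 and Slc34a2 higher ones. The median log2 difference of the list was 0.19, and that of all genes 0.10. The part of alveolar tissue in the levels of the 7 genes was not tested. Aqp5 and Pdpn were called in fibrotic bronchi without replicate 7 as with it.

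The other genes linked to type I cells gave a mixed picture as well. Of 18 measured of 22 listed, 3 rose and 3 fell in fibrotic bronchi (2.99% and 6.40% of all probe sets), with a median log2 difference of -0.09. Claudin 18 (Cldn18), a tight junction protein of alveolar cells, rose in both exposed groups, with 2.18 in fibrotic (adjusted p = 0.00555) and 2.85 in non-fibrotic bronchi (adjusted p = 0.00743). It ranged from 6.79 to 9.04 in controls, was 9.81, 11.17 and 9.56 in fibrotic and 11.35, 10.18 and 11.02 in non-fibrotic bronchi. The study had picked Cldn18 from these samples, so its direction in non-fibrotic bronchi is not independent evidence. By quantitative PCR on RNA of the captured bronchi, the study also reported a rise of Cldn18 in non-fibrotic airways. Krt7, a keratin of simple epithelia, rose in fibrotic bronchi with 3.91 (adjusted p = 2.45e-04) and the gap junction gene Gja1 with 2.07 (adjusted p = 0.00105). Sema3e, a secreted semaphorin (-3.02, adjusted p = 6.54e-04), Cav2 and the sodium channel subunit Scnn1g (-4.04, adjusted p = 0.0032, or -2.55 with dim arrays raised to the absent-transcript level) fell. Igfbp2, a binding protein of insulin-like growth factors known from mature type I cells, was between 10.74 and 13.02 in non-fibrotic bronchi. It was between 5.75 and 7.64 in fibrotic bronchi (log2 difference -5.36, adjusted p = 0.00153) and between 6.62 and 10.09 in controls. As 2 of the fibrotic arrays lay under the level of absent transcripts, the size of that difference is uncertain. The summed signal of the list was 23310 to 30810 in controls, 43930 to 48710 in non-fibrotic and 31000 to 36900 in fibrotic bronchi. The median log2 signal of the list, which the brightest genes do not carry, was 9.86 to 10.38 in controls, 10.53 to 10.86 in non-fibrotic bronchi and 9.39 to 10.93 in fibrotic bronchi, where replicate 7 lay above all non-fibrotic arrays.

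**Figure D4:**
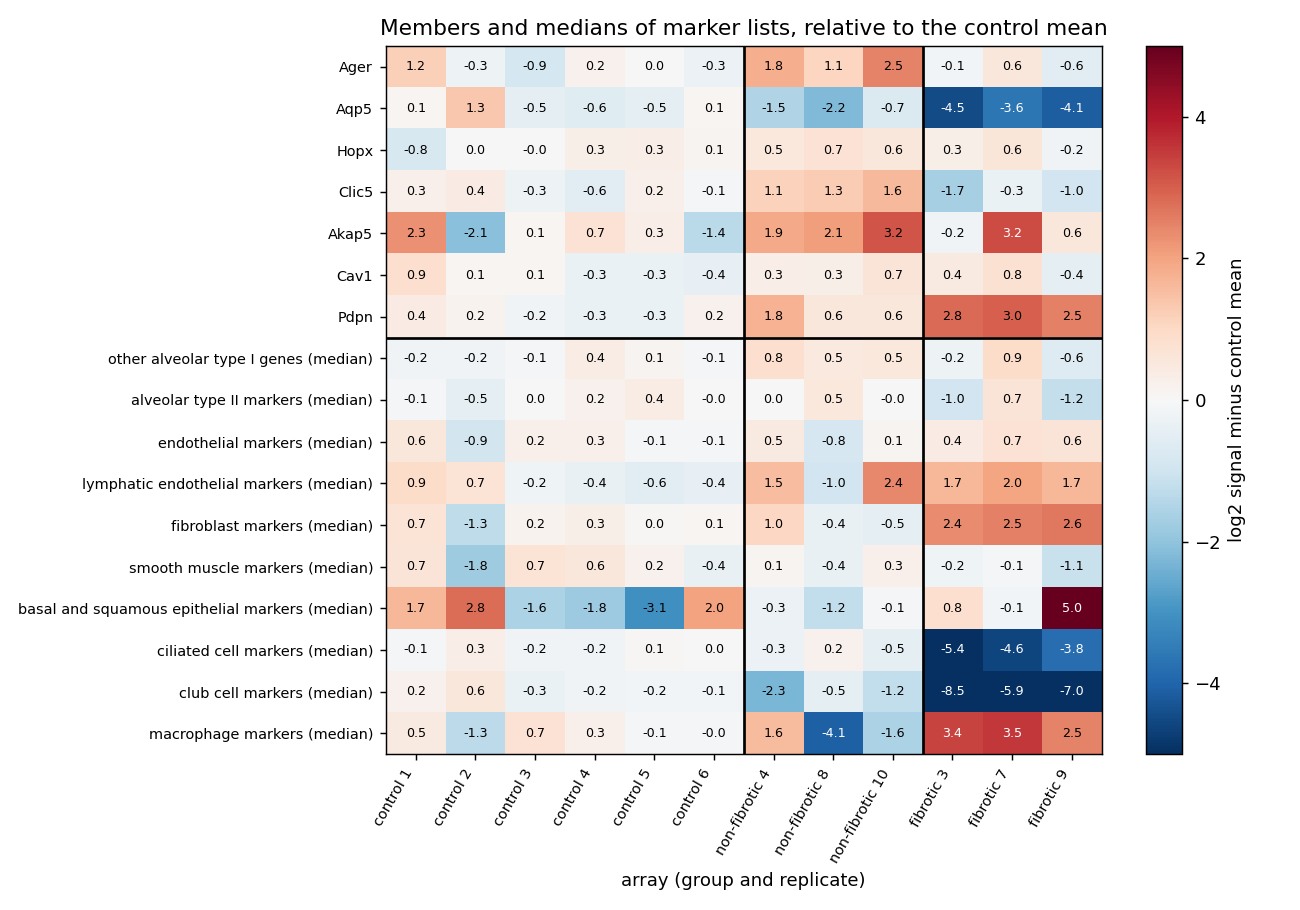
Log2 signal of the 7 genes and median log2 signal of other marker lists on each of 12 arrays (columns), as the difference from the control mean (colour, cut off at 5 in either direction, with values printed). Aqp5 and the ciliated and club cell medians are lowest on the fibrotic arrays, Pdpn and the fibroblast and macrophage medians are highest there, and Clic5 is highest on the non-fibrotic arrays.

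Across the 12 arrays, Ager went with Akap5 (Pearson r = 0.746) and with Clic5 (0.745), and Aqp5 ran against Pdpn (-0.867). These values describe arrays that share groups and rats, and Akap5 was under the level of absent transcripts on 7 of the 12, so its correlations rest largely on values without measurable signal. With the group means taken out, Ager with Akap5 was 0.691 and Ager with Clic5 0.394, whereas Aqp5 with Pdpn was 0.326, so the opposite course of that pair lay between the groups. Of 21 pairs, 8 had a negative r with the group means taken out, among them all 6 pairs with Hopx. Among 7103 brighter genes, those most like Aqp5 over the 12 arrays were Mtarc2 (r = 0.962), Cdca7l (0.961) and Gstm2 (0.959), and those most like Pdpn were Ostm1 (0.979), Plau (0.975) and Cerk (0.971). For Clic5 they were Nabp2 (0.936), Llgl2 (0.924) and Acsl5 (0.923), for Ager Plac9 (0.846), Gkap1 (0.845) and Mcf2l (0.84), and for Akap5 Smarcd3 (0.913), Cygb (0.894) and Ncdn (0.882). Hopx was most like Atp7a (0.901), Gprc5a (0.899) and Tspan6 (0.888), and Cav1 most like Ash1l (0.854), Synpo2 (0.84) and Nexn (0.821).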

How the data were processed

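Signals of 12 laser-captured bronchial specimens were read from the deposited table. The authors made its intensity values with the MAS5 algorithm, scaled to a common trimmed mean, as 1 linear signal per probe set and array. The version of MAS5 is not given in the sources used here. Probe set names are those of a rat 3′ expression array, while the design text names a whole-transcript array. Of 31099 probe sets, 57 Affymetrix controls were left out and 31042 were tested with no filter. The annotation gives 1 symbol for 20826 of them, several for 436 and none for 9780. Groups and replicate numbers came from the labels.

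Signals were taken to log2 with no pseudocount and fitted with limma 3.58.1 (lmFit, eBayes with intensity trend) in R 4.3.3, in one model of the 3 groups, after the script had been tested on simulated data. A probe set was called at an adjusted p under 0.01 within its comparison. The level of absent transcripts, 6.52, is the highest of 84 values of bacterial transcripts not added to the samples. Differences with arrays raised to this level, and folds bounded by it, were not tested. The adjusted p given beside them is that of the values as measured. Arrays have no sequencing depth, and their number limits the precision.

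The 7 genes and all lists were chosen with earlier results of these data known. The named genes are the 7, up to 4 of each list with the smallest adjusted p in a comparison, the defining markers, and for each of the 7 the 3 genes of highest Pearson r among those brighter than the median gene. Clic4, Scnn1g and Srf lie outside this rule and were named after their values were seen. Some genes stand in several lists (Cav2, Ezr, Msn). Genes of the lists without a probe set of their own are not analysed here. Alternatives used other thresholds, left out the dimmest 40% of probe sets, raised values to the 20th percentile, added a pseudocount of 16, and changed the normalization, the variance model, the arrays fitted, the controls, a block for the label sets (statmod 1.5.0) and the Cav1 probe set. Each array was left out in turn. Figures were drawn with matplotlib 3.10.9.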

Additional observations from a re-analysis of the deposited data

Results flagged for a closer look

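Among the 7 genes, the 6 control arrays of each were checked for one far from the others, and 2 of 7 stood out (chance does so in about 1 in 20 groups). Aqp5 was 12.27 on control replicate 2, with a gap to the next array of 0.642 of the range of the controls, and without it the fibrotic difference stayed called. Hopx was 11.08 on control replicate 1, with a gap of 0.673 of the range. The exposed groups differed directly, each by the contrast itself, in Aqp5 (log2 difference -2.61, fibrotic minus non-fibrotic), Clic5 (-2.33) and Pdpn (1.81).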

How the results depend on the processing

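Against controls, the fibrotic differences of Aqp5 and Pdpn kept their direction and their call in all 28 alternatives (adjusted p 9.99e-07 to 0.00104 for Aqp5, 1.18e-06 to 0.0042 for Pdpn). Between fibrotic and non-fibrotic bronchi, Clic5 (-2.326) lost its call in 1 of 28, Aqp5 (-2.608) in 5 and Pdpn (1.807) in 9. With only the 2 groups compared, the adjusted p was 0.0115 for Clic5, 0.0195 for Aqp5 and 0.016 for Pdpn, leaving 0 of the 7 genes higher and 0 lower. Without the intensity trend it was 0.0175 for Aqp5 and 0.0189 for Pdpn, and unmoderated 0.0299 and 0.0202, leaving 0 higher and 1 lower in either case. Pdpn also lost its call with array weights (1.726, adjusted p = 0.0173) and with control replicates 1 and 2 only (0.0116), leaving 0 genes higher. Leaving out each array gave -2.975 to -2.232 for Aqp5 (0.0182 without non-fibrotic replicate 10) and 1.606 to 2.204 for Pdpn (0.019 at the weakest), with 0 to 1 genes higher and 1 to 2 lower. At an adjusted p under 0.05, 2 genes were lower in fibrotic bronchi than in controls, and 2 higher and 1 lower in non-fibrotic bronchi. At an unadjusted p under 0.001 and a fold over 2, 1 was higher in non-fibrotic bronchi, Clic5. The uncalled fibrotic difference of Ager from controls turned to 0.016 with median centring, 0.187 with array weights and 0.182 with control replicates 3 to 6, and ran from -0.357 to 0.217 with an array left out. That of Cav1 from controls turned to -0.224 with control replicates 1 and 2 and with the label sets as a fixed block, -0.417 with probe set 1370131_at and -0.008 with the mean of its probe sets (-0.004 to 0.602 with an array left out). In the same settings its non-fibrotic difference was -0.047, -0.047, -0.786 and -0.026. Between the exposed groups Cav1 was 0.369 with that probe set, 0.018 with the mean and -0.434 to 0.172 with an array left out.

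Over all probe sets, the number called in fibrotic bronchi against control was 5541 at an adjusted p under 0.05, 1760 unmoderated, 4863 with array weights, 408 with control replicates 1 and 2, 1337 with the fixed block and 1718 to 3443 with an array left out, against 2914. In non-fibrotic bronchi it was 1811 at 0.05, 892 at the unadjusted threshold, 348 with a floor, 333 with a pseudocount, 282 after quantile normalization, 76 without the trend, 42 unmoderated, 2 with control replicates 1 and 2, 1016 with control replicates 3 to 6, 38 with the fixed block, 58 with the random block and 41 to 371 with an array left out, against 162. Between the exposed groups it was 2970 at 0.05, 504 without the trend, 386 unmoderated, 610 with array weights, 292 with the 2 groups only, 514 with control replicates 1 and 2 and 598 to 1921 with an array left out, against 1185. The cause of these changes was not tested. Of 2856 counts in the other lists, 2495 stayed within 1.5 times. No paired analysis was possible because the labels do not say which exposed specimens share a rat.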

Other observations

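Some values of the marker lists fall outside the comparisons above. On fibrotic replicate 9 the median of 7 basal and squamous markers was 12.15, against 8.00 and 7.04 on fibrotic replicates 3 and 7. Macrophage markers had summed signals of 405.7 to 5061 over the non-fibrotic arrays and 9309 to 17690 over the fibrotic ones. Of 7 measured club cell markers, Scgb3a1 (log2 difference -6.73, adjusted p = 0.00161, or -6.08 with dim arrays raised to the absent-transcript level) and Cyp2a3 (-5.64, adjusted p = 0.00602, or -4.67 with the same step) fell in non-fibrotic bronchi against controls. Both are products of airway secretory cells, but the list did not move as one. Cyp2f4, Cyp4b1 and Sec14l3 had lower means there than in controls without a call. Scgb1a1 (15.11 against 14.45 in controls) and Aldh1a1 (14.10 against 13.54) had higher means, also without a call. The study picked Cyp2a3 from these samples for non-fibrotic bronchi, so its direction there is not independent evidence.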
